A study of Mus with 21 samples.

Results

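The genes described here are used as markers of the dividing precursor cells of the embryonic brain. They are 8 genes of radial glia (Pax6, Sox2, Emx2, Hes1, Hes5, Nes, Vim and Fabp7) and 2 genes of intermediate progenitors (Neurog2 and Eomes). They were taken by gene symbol from the deposited table, where they are 10 of 55335 genes, and all 10 passed the filter on low counts that left 30552 genes to be tested. The table holds RNA sequencing of the whole brain of 21 female mouse embryos of stage E17.5, late in gestation, 1 library per embryo. The study asked how losing 1 copy of Wapl changes gene expression in embryos that have lost 1 copy of Nipbl. Nipbl encodes a protein that loads the cohesin complex onto chromatin, and Wapl encodes one that releases it.

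There were 5 WT embryos, with Wapl +/+ and Nipbl +/+ alleles. The 7 WaplΔ/+ embryos carried 1 Wapl allele without its promoter and translation start and 2 intact Nipbl alleles. The 3 Nipbl+/- embryos had 1 Nipbl allele deleted and both Wapl alleles intact, and 6 double heterozygotes carried both deletions. The Wapl deletion was made by a Cre transgene active in the early embryo and passed on through the germ line, and the Nipbl deletion arose in the sperm of sires with a Cre transgene active in male germ cells, so each embryo carried its alleles in every cell. The animals were on a C57BL/6J background. The labels write the Wapl deletion first (Wapl delta/+) in replicates 1 and 2 of the WaplΔ/+ group and replicates 1 to 4 of the double heterozygotes, and second (Wapl +/delta) in the rest. They do not say which embryos were littermates, so P values measure the spread between the sampled embryos.

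Radial glia line the ventricles of the embryonic brain, divide there, and send a long process to the brain's surface. In the cortex some of their daughters are intermediate progenitors, which move a short way from the ventricle and divide again to give neurons. Late in gestation the radial glia of the cortex begin to turn to making astrocytes and oligodendrocyte precursors. Notch signalling keeps cells in the radial glial state through Hes1 and Hes5, while Neurog2 pushes them towards neurons and Eomes marks the intermediate step.

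Each library held between 25682566 and 35818767 counts on genes. The deletions could be read in the counts: Nipbl stood at 55.2% ± 4.25 (SD, n = 3) of the WT mean in Nipbl+/- brains and at 55.4% ± 1.80 (SD, n = 6) in double heterozygotes. Wapl stood at 47.2% ± 4.42 (SD, n = 7) in WaplΔ/+ brains and at 49.9% ± 1.75 (SD, n = 6) in double heterozygotes, and no carrier overlapped the WT range of the gene it had lost. The mitochondrial gene mt-Nd3 split the libraries into 9 with 52 to 106 counts (2 WT, 5 WaplΔ/+, 2 double heterozygotes) and 12 with 0 to 6 counts (3 WT, all 3 Nipbl+/-, 2 WaplΔ/+, 4 double heterozygotes). The second spelling of the Wapl deletion and the high mt-Nd3 level fell on the same WaplΔ/+ and double-heterozygote libraries and cannot be told apart in them. The pituitary genes Gh, Prl, Pomc and Cga had a median summed level of 1.08 CPM (counts scaled to a common library size) in WT brains. In double-heterozygote brains the median was 1.40 CPM. The sum reached 85.8 CPM in WT replicate 2, and 37.9 and 9.82 CPM in double-heterozygote replicates 6 and 5.

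In Nipbl+/- brains, 6 of the 10 progenitor genes passed the test against WT, 5 of them higher and 1 lower. Neurog2, Eomes, Emx2, Sox2 and Nes rose, and Fabp7 fell. Neurog2 changed most, by 0.67 on the log2 scale, and the other increases lay between 0.22 and 0.33. In WaplΔ/+ brains none of the 10 passed, although 9 of the 10 fold changes were positive. In double heterozygotes Neurog2 alone passed, and 8 of the 10 fold changes were positive. In whole-brain RNA, a change in the number of cells of a type and a change in RNA per cell cannot be told apart.

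A gene was called when its Benjamini-Hochberg adjusted P, over all genes tested with edgeR's quasi-likelihood test, fell below 0.10. Among all genes tested, 11.2% were called in Nipbl+/- against WT brains (4.25% higher and 6.96% lower), 2.22% in WaplΔ/+ brains, and 3.28% in double heterozygotes (0.812% higher and 2.46% lower). Before adjustment, 7 progenitor genes had a P below 0.05 in Nipbl+/- brains, 5 in WaplΔ/+ brains and 6 in double heterozygotes. Of all 30552 genes tested, 6117, 4780 and 4123 had one, in the same order. The median log2 fold change of the 10 genes was 0.22, 0.11 and 0.15 in the same order, beside medians over all genes tested of -0.0086, -0.0034 and 0.0007. DESeq2 called the same 6 genes in Nipbl+/- brains, called Nes and Vim in WaplΔ/+ brains, and called Sox2, Fabp7 and Eomes besides Neurog2 in double heterozygotes. Of all genes tested it called 3504, 1446 and 1480, where edgeR called 3422, 677 and 1001.

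**Figure D1:**
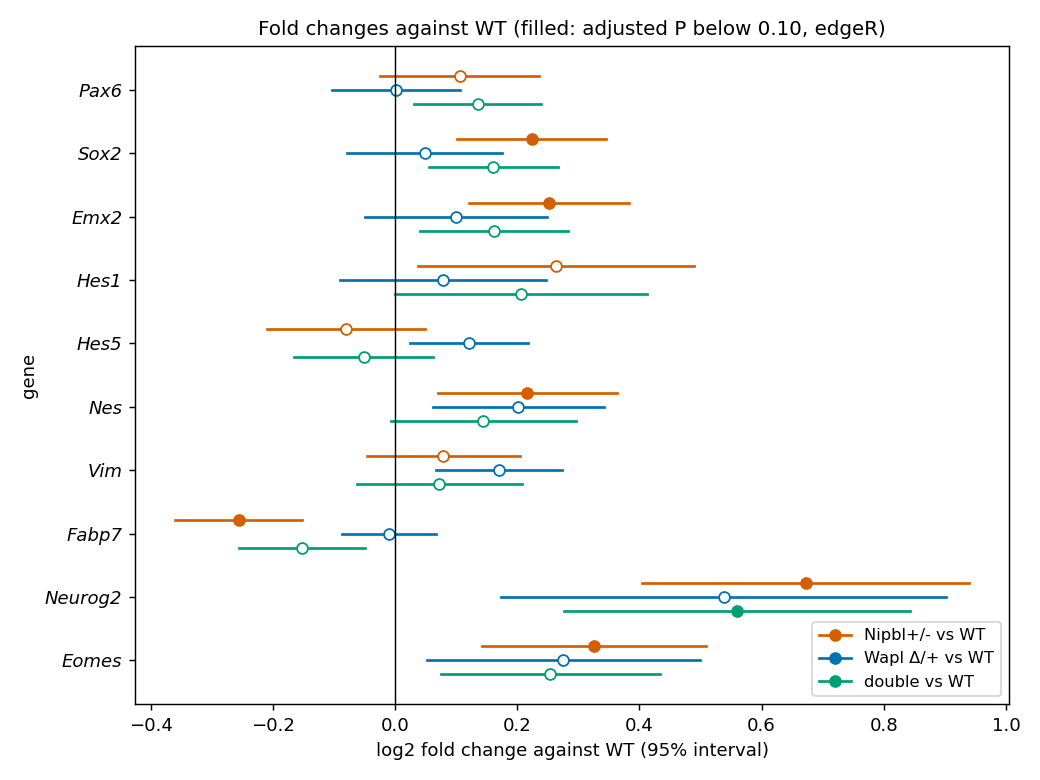
Log2 fold change against WT on the x axis for each of the 10 genes on the y axis, in Nipbl+/- (orange), WaplΔ/+ (blue) and double-heterozygote brains (green); lines are 95% intervals and filled points passed the test. Neurog2 lies farthest right in all 3 mutant groups, at 0.67, 0.54 and 0.56, and Fabp7 lies farthest left in Nipbl+/- brains, at -0.26.

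Neurog2 (ENSMUSG00000027967.8, chromosome 3 of GRCm38 from 127632733 to 127635636) encodes a proneural transcription factor that commits cortical progenitors to making glutamatergic neurons. Its normalized counts, scaled for library size over the 21 libraries, were 413, 375, 361, 320.2 and 401 in the 5 WT brains. The 3 Nipbl+/- brains gave 666, 423 and 743. All 3 lay above all 5 WT brains, but replicate 2 did so narrowly. The mean was 374 ± 36.3 (SD, n = 5) in WT and 610.5 ± 167 (SD, n = 3) in Nipbl+/- brains, a log2 fold change of 0.67 (SE 0.127, edgeR adjusted P = 0.00286). The fold change was 0.88 without Nipbl+/- replicate 2 and 0.51 without replicate 3, and the gene was called whichever of the 8 libraries was left out. With all 4 groups in 1 fit it just missed the threshold (adjusted P = 0.106).

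In WaplΔ/+ brains Neurog2 ran from 328 through a median of 494 to 902. One brain, replicate 5, stood at 902, and replicates 3 and 7 lay inside the WT range. The fitted log2 fold change of 0.54 (SE 0.174) missed the threshold (edgeR adjusted P = 0.141). In double heterozygotes the counts ran from 369 through a median of 566 to 741, with replicate 3 inside the WT range and replicate 5, at 419.5, just above it. The log2 fold change was 0.56 (SE 0.135, edgeR adjusted P = 0.0391), with 5 of 6 brains above the WT mean. The call was lost without WT replicate 4 (adjusted P = 0.127) and without double-heterozygote replicate 4 (adjusted P = 0.102).

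Eomes (ENSMUSG00000032446.14, chromosome 9 from 118478186 to 118486132), also known as Tbr2, encodes a T-box factor that marks intermediate progenitors. Normalized counts were 943, 1080, 1016, 929 and 1048 in WT brains and 1395, 1004 and 1453 in Nipbl+/- brains. Nipbl+/- replicate 2 lay at the WT mean and the other 2 lay above all WT brains. The mean rose from 1003 ± 65.5 (SD, n = 5) to 1284 ± 244 (SD, n = 3), a log2 fold change of 0.33 (SE 0.0869, edgeR adjusted P = 0.0262). The call was lost without Nipbl+/- replicate 1 (adjusted P = 0.15) or replicate 3 (adjusted P = 0.14). It was also lost among the low mt-Nd3 libraries of both groups (3 Nipbl+/- and 3 WT brains), where the log2 fold change was 0.31 (adjusted P = 0.134). Later fold changes within an mt-Nd3 set likewise used only libraries of the groups compared. Eomes ran from 858 through 1157 to 1632 in WaplΔ/+ brains (log2 fold change 0.28, edgeR adjusted P = 0.213) and from 936 through 1236 to 1440.1 in double heterozygotes (0.25, adjusted P = 0.16). The ranges of both these groups spanned the WT mean.

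**Figure D2:**
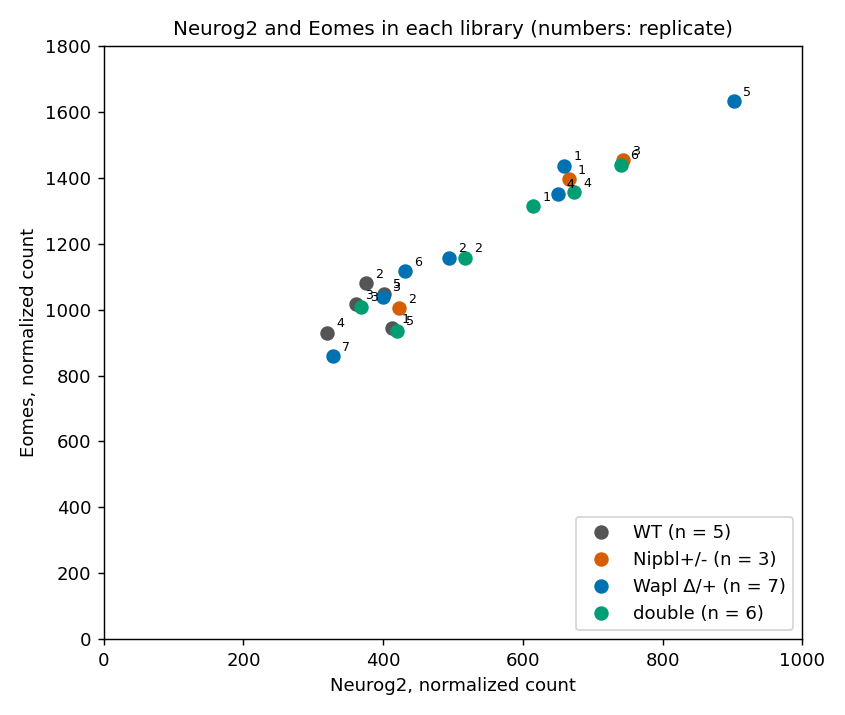
Normalized count of Neurog2 (x axis) and Eomes (y axis) in each of the 21 libraries, colored by group and numbered by replicate. The 5 WT brains cluster at the lower left, and some WaplΔ/+ and double-heterozygote brains lie among them. Nipbl+/- replicate 2 lies just to the right of the WT brains on the Neurog2 axis, and the other mutant brains spread to the upper right as far as WaplΔ/+ replicate 5.

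Neurog2 and Eomes moved together from brain to brain. Taken as deviations from the group means of log2 CPM, they correlated over the 21 libraries with Pearson's r = 0.959 and Spearman's rho = 0.970. The permutation P, with libraries permuted within groups, was 1e-05 for both, the smallest that 100000 permutations can give, and 5e-05 after adjustment over the 5 pairs examined. Without the 2 libraries farthest from the median of Eomes, r was 0.939. Within the low mt-Nd3 libraries r was 0.921 (n = 12), and within the high ones it was 0.987 (n = 9, permutation P = 0.00183).

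Among the radial glial transcription factors, Sox2 and Emx2 rose in Nipbl+/- brains and Pax6 did not pass the test. Sox2 (ENSMUSG00000074637.7, chromosome 3 from 34649995 to 34652461) maintains neural stem cells. Its normalized counts were 1754, 1636, 1760.2, 1558 and 1679 in WT brains and 2221, 1787 and 1997 in Nipbl+/- brains. No Nipbl+/- brain fell within the WT range, and replicate 2 lay nearest to it. Sox2 had a log2 fold change of 0.22 (SE 0.058, edgeR adjusted P = 0.0223), and it fell to 0.15 without Nipbl+/- replicate 1, where the call was lost (adjusted P = 0.184). Among the low mt-Nd3 libraries it was 0.19 and not called (adjusted P = 0.156).

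Emx2 (ENSMUSG00000043969.4, chromosome 19 from 59458690 to 59465357) encodes a homeodomain factor that patterns the cortex and is expressed in its dividing zone. The WT brains gave 448, 411, 431, 476 and 444 normalized counts and the Nipbl+/- brains 526, 517 and 570.4. Here replicate 2 stood with the other Nipbl+/- brains, all clear of the WT range. The log2 fold change was 0.25 (SE 0.0621, edgeR adjusted P = 0.017), and the gene was called whichever of the 8 libraries was left out, with fold changes from 0.21 to 0.28.

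Pax6 (ENSMUSG00000027168.21, chromosome 2 from 105668896 to 105698410), which radial glia of the cortex need to make neurons, gave 1211, 1191, 1139.7, 1198 and 1333 in WT brains and 1488, 1187 and 1328 in Nipbl+/- brains. The groups overlapped, and the log2 fold change of 0.11 had a 95% interval from -0.02 to 0.24 (edgeR adjusted P = 0.377). In double heterozygotes it was 0.14, with an interval from 0.03 to 0.24, and all 6 brains lay above the WT mean, but the adjusted P was 0.208. For Sox2 and Emx2 too, all 6 double heterozygotes lay above the WT mean, with log2 fold changes of 0.16 each and adjusted P of 0.122 and 0.192. In WaplΔ/+ brains Pax6, Sox2 and Emx2 had fold changes of 0.00, 0.05 and 0.10, each with an interval that included 0.

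Hes1 and Hes5 both encode repressors that act downstream of Notch receptors, and neither passed the edgeR test against WT in any mutant group. Hes1 (ENSMUSG00000022528.8, chromosome 16 from 30065357 to 30067796) had 178, 221, 178, 181 and 169.6 normalized counts in WT brains and 267, 202 and 212 in Nipbl+/- brains. WT replicate 2 stood apart from the other 4 WT brains and lay inside the Nipbl+/- range. The log2 fold change of 0.26 (SE 0.108) was not called (edgeR adjusted P = 0.162). Hes1 had log2 fold changes of 0.08 in WaplΔ/+ brains and 0.21 in double heterozygotes, with adjusted P of 0.7 and 0.372.

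Hes5 (ENSMUSG00000048001.7, chromosome 4 from 154960626 to 154962372) gave 579, 603, 654, 563 and 614 in WT brains and 629, 575 and 539.7 in Nipbl+/- brains. The ranges overlapped, with a log2 fold change of -0.08 (95% interval -0.21 to 0.05, edgeR adjusted P = 0.53). WaplΔ/+ brains had the highest Hes5 level, from 605 through 672 to 695, with all 7 above the WT mean and a log2 fold change of 0.12 (edgeR adjusted P = 0.21). Double heterozygotes ran from 511 through 592 to 624. Set directly against WaplΔ/+ brains, their Hes5 log2 fold change was -0.17 (SE 0.0488), and all 6 lay below the WaplΔ/+ mean, but the adjusted P of 0.143 missed the threshold. In that comparison DESeq2 called Hes5, and 626 of all genes tested. Across libraries, the deviations of Hes1 and Hes5 had r = 0.349 and rho = 0.305, with permutation P of 0.189 and 0.228. The 2 genes had r = 0.368 within the low mt-Nd3 libraries and -0.41 within the high ones.

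Nes and Vim encode the intermediate filament proteins nestin and vimentin of the radial glial process. Nes (ENSMUSG00000004891.16, chromosome 3 from 87971093 to 87980451) had 4055, 4108, 4104, 3825 and 3775 normalized counts in WT brains and 5268, 3853 and 5029 in Nipbl+/- brains. Replicates 1 and 3 lay well above all WT brains, and replicate 2 lay below the WT mean. The log2 fold change was 0.22 (SE 0.0699, edgeR adjusted P = 0.0672), and the call was lost without WT replicate 4 or 5, without Nipbl+/- replicate 1 or 3, and among the low mt-Nd3 libraries (adjusted P = 0.331). Nes ran from 3981 through 4693 to 5370 in WaplΔ/+ brains, all 7 above the WT mean, for a log2 fold change of 0.20 (adjusted P = 0.149). Double heterozygotes ran from 3421 through 4587 to 5005, below as well as above every WT brain.

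Vim (ENSMUSG00000026728.9, chromosome 2 from 13574311 to 13582826) varied little among WT brains, at 6956, 7217, 7382, 7176 and 7254. Nipbl+/- brains gave 8826, 6618 and 7840.4. Replicate 2 lay below all WT brains and the other 2 above them, and the log2 fold change of 0.08 (edgeR adjusted P = 0.524) turned to -0.02 without replicate 1. All 7 WaplΔ/+ brains lay above the WT mean, from 7242 through 7828 to 9392, and the log2 fold change was 0.17 (SE 0.0494, edgeR adjusted P = 0.106). Vim was called in that comparison when the scaling was computed over the 21 libraries (adjusted P = 0.0844). Nes and Vim rose and fell together between brains (deviations from group means, r = 0.871, rho = 0.899, adjusted permutation P = 0.00025 and 0.000117), with r = 0.946 in the low and 0.967 in the high mt-Nd3 libraries.

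Fabp7 (ENSMUSG00000019874.11, chromosome 10 from 57784923 to 57788450) encodes the brain fatty acid binding protein, which is abundant in radial glia and in the astrocytes that derive from them. WT brains gave 13555, 13975, 13700.4, 14092 and 13264 normalized counts and Nipbl+/- brains 12378, 12492 and 10322. Every Nipbl+/- brain lay below every WT brain, with replicate 3 lowest. Fabp7 fell by 0.26 on the log2 scale (SE 0.0497, edgeR adjusted P = 0.00348), and it was called whichever of the 8 libraries was left out, and also among the low mt-Nd3 libraries (log2 fold change -0.26, adjusted P = 0.0321). In double heterozygotes 5 of 6 brains lay below the WT mean, from 11407 through 12288 to 14113, for a log2 fold change of -0.15 (adjusted P = 0.14). Replicate 5, at 14113, was above every WT brain, and without it Fabp7 had a log2 fold change of -0.19 and was called (adjusted P = 0.00299). WaplΔ/+ brains had a mean of 13744 ± 780 (SD, n = 7), a log2 fold change of -0.01 with a 95% interval from -0.09 to 0.07.

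**Figure D3:**
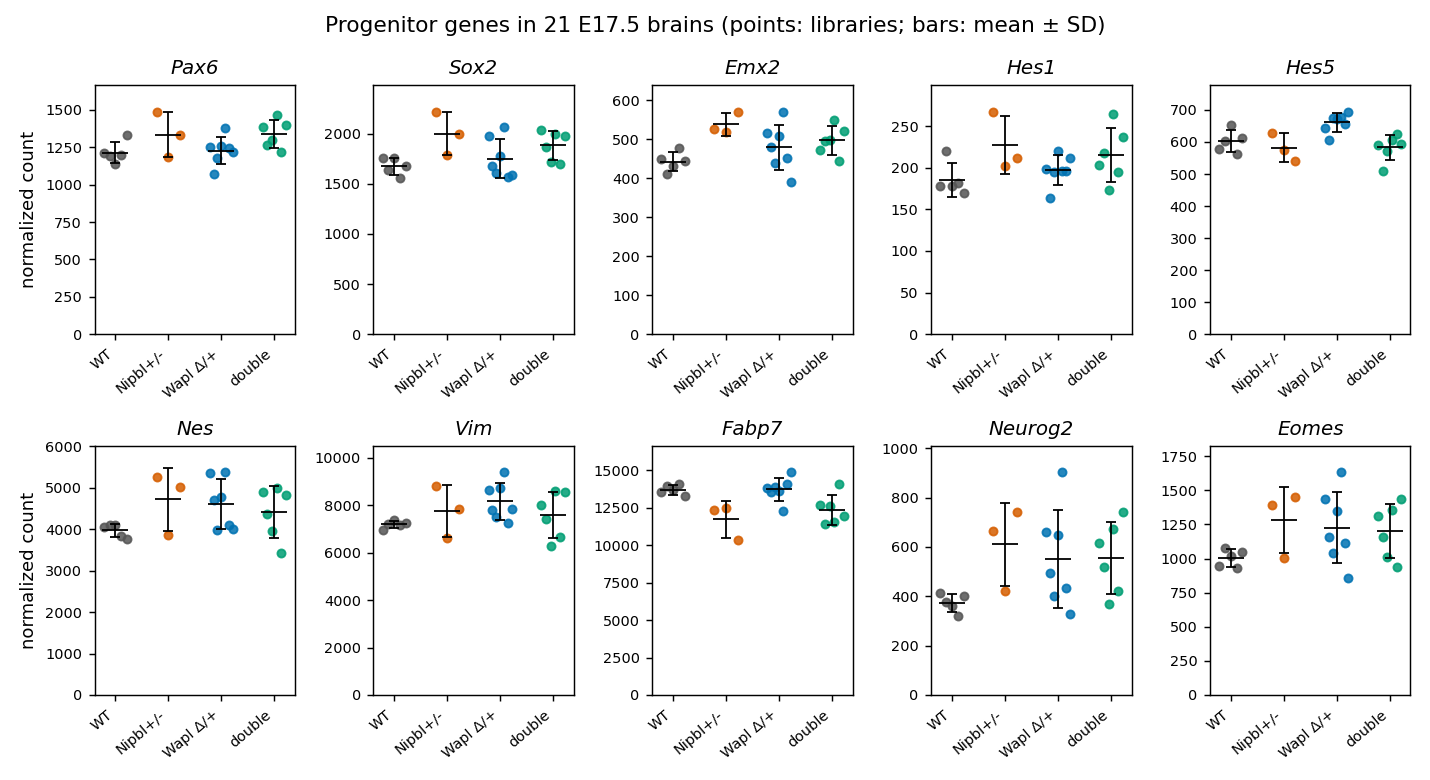
Normalized counts of the 10 genes (y axis, from 0) in each group (x axis); points are libraries, and black bars give the mean ± SD. WT brains lie close together for most genes, and Neurog2 in Nipbl+/- brains, from 423 to 743, lies wholly above the WT range of 320.2 to 413, while Fabp7 in Nipbl+/- brains lies wholly below its own WT range.

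Counting ranges in place of tests, 4 of the 10 genes did not overlap between Nipbl+/- and WT brains (Sox2, Emx2 and Neurog2 above, Fabp7 below), against 14.7% of all genes tested. In WaplΔ/+ and double-heterozygote brains none of the 10 was free of overlap with WT, where 1.4% and 2.53% of all genes were. In order of group means, WT was lowest for 8 of the 10 genes, and the exceptions were Hes5 and Fabp7, for which Nipbl+/- was lowest. For each of the 10 genes, the ranges of all 3 pairs of neighbours in that order overlapped.

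Brains of 1 mutant genotype differed among themselves more than WT brains did in most cases. The coefficient of variation was larger than in WT for 27 of the 30 pairs of a gene and a mutant group, the exceptions being Emx2 in Nipbl+/- and Hes1 and Hes5 in WaplΔ/+ brains. Neurog2 had a coefficient of variation of 9.72% in WT brains, 27.4% in Nipbl+/-, 35.8% in WaplΔ/+ and 26.3% in double-heterozygote brains. For Vim the values were 2.16%, 14.3%, 9.45% and 12.8%. Group sizes differ, and the spread was not tested. Several of the 10 genes rose and fell together, so the 30 pairs are not independent. The same count was not made over all genes tested, so it does not set the 10 genes apart.

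Nipbl+/- replicate 1 had 8 of the 10 genes above all WT brains and replicate 3 had 6, while replicate 2 had 3. Among WaplΔ/+ brains the number ran from 2 in replicate 3 to 8 in replicate 5, and among double heterozygotes from 1 in replicate 3 and 2 in replicate 5 to 8 in replicates 4 and 6. The same number was not counted over all genes tested, so these values do not set the 10 genes apart. The summed level of 18 cell division genes, among them Mki67 and Top2a, was 773 to 850.1 CPM in WT brains. It was 956 and 919 CPM in Nipbl+/- replicates 1 and 3 and 726 CPM in replicate 2. In double heterozygotes it ran from 750.1 CPM in replicate 3 to 957 CPM in replicate 4. Replicates 1 and 2, each with 6 of the 10 genes above all WT brains, had 928 and 781 CPM. In WaplΔ/+ brains it ran from 750.1 CPM in replicate 7 to 1010 CPM in replicate 1, with 1004 CPM in replicate 5. Its part in the differences between groups was not tested. Without Nipbl+/- replicate 2, 9 of the 10 genes were called against WT, all but Hes5, and 4788 of all genes tested in place of 3422. Without replicate 1 the counts were 3 (Emx2, Fabp7 and Neurog2) and 1828. In double heterozygotes 7 of the 10 were called without replicate 5, 4 without replicate 3, and none without replicate 4 or without WT replicate 4, where 2504, 1687, 530 and 454 of all genes were, in place of 1001. In WaplΔ/+ brains 4 were called without replicate 7 (Nes, Vim, Neurog2 and Eomes) and 3 without replicate 3, where 767 and 858 of all genes were, in place of 677.

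The subsets by label gave different counts. Taking the WaplΔ/+ brains whose label writes the deletion first (n = 2), 4 of the 10 genes (Nes, Vim, Neurog2 and Eomes) were called against WT, and taking the other 5 brains Hes5 alone was, where 991 and 1300 of all genes were. In double heterozygotes 6 were called in the first subset (n = 4) and Neurog2 alone in the second (n = 2), beside 1814 and 869 of all genes. The log2 fold change of Neurog2 was 0.60 and 0.51 in these subsets of WaplΔ/+ brains and 0.52 and 0.63 in those of the double heterozygotes. Against WT brains of the same mt-Nd3 set, Neurog2 had log2 fold changes of 0.57 and 0.57 in WaplΔ/+ brains with low and high mt-Nd3, and of 0.49 and 0.68 in double heterozygotes, of which the 0.49 alone passed the test (adjusted P = 0.0931). All 3 Nipbl+/- brains belong to the low set, so that group has no value in the high one.

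Both remaining pairs examined, Pax6 with Sox2 and Sox2 with Eomes, also correlated across libraries after removing group means (r = 0.661 and 0.857, rho = 0.696 and 0.864, adjusted permutation P of 0.00641 and 0.00015 for r). Without the 2 libraries farthest from the median of the first gene, r was 0.614 and 0.803.

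Ranked over the 17303 genes averaging 1 CPM or more, the genes whose level across the 21 libraries most resembled the mean standardized level of the 10 were Cnn3, Cbx2, Cdca3, Tead2 and Ncaph, with r between 0.937 and 0.946. Cnn3 encodes an actin-binding calponin, Cbx2 a Polycomb protein, Tead2 a DNA-binding partner of the Hippo pathway's coactivators, and Ncaph a condensin subunit, and Cdca3 acts in cell division. The 5 with the most opposite pattern were Gpd2, Opcml, Rasgrf2, Dgkg and Scn2a (r from -0.94 to -0.93), of which Scn2a encodes a neuronal sodium channel and Opcml a neuronal adhesion protein. Of the 10 themselves, Eomes (r = 0.918), Neurog2 (0.917) and Vim (0.913) had the highest r with the mean, Hes5 had 0.249 and Fabp7 had -0.45. Each of the 10 is part of that mean, which raises its r by construction. The libraries share their sequencing and scaling, and no P is given for these values.

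Genes with the same roles were listed apart from the 10. Of 14 other genes of intermediate progenitors and neuronal commitment, 8 rose in Nipbl+/- brains and 0 fell, with a median log2 fold change of 0.24. Rhbdl3, which encodes a rhomboid-like protein, had 348 ± 26.2 normalized counts in WT (SD, n = 5) and 543 ± 94.9 in Nipbl+/- brains (SD, n = 3), a rise of 0.61 in log2 (edgeR adjusted P = 0.000602). Gadd45g, Mfng and Nhlh1 rose by 0.46, 0.44 and 0.42. Dll1, the Notch ligand that committed daughters display, did not pass (0.18, adjusted P = 0.113). In double heterozygotes 4 of the 14 rose (Rhbdl3 0.49, Insm1 0.35, Mfng 0.30 and Btg2 0.29), and in WaplΔ/+ brains none passed, though 13 of the 14 fold changes were positive.

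The other radial glial genes did not share one direction. Of 22, 5 rose and 8 fell in Nipbl+/- brains, with a median of -0.00036. The 5 that rose (Sox1, Sox3, Sox21, Lhx2 and Emx1) all encode transcription factors of neural precursors. Those that fell were led by Hopx (-0.67), Pla2g7 (-0.58), Slc1a3 (-0.37) and Ptprz1 (-0.37), each with an edgeR adjusted P of 0.00124 or less. Slc1a3 encodes the glutamate transporter GLAST of radial glia and astrocytes, and its normalized count went from 8172 ± 274 (SD, n = 5) to 6455 ± 612 (SD, n = 3). In double heterozygotes 1 of the 22 rose and 6 fell, among them Pla2g7 (-0.37), Hopx (-0.32), Mfge8 (-0.31) and Slc1a3 (-0.26). In WaplΔ/+ brains 2 fell, Ptprz1 (-0.24) and Tnc (-0.16), and 0 rose. The summed level of the 22 genes was 2386 to 2480 CPM in WT and 2204 to 2303 CPM in Nipbl+/- brains. It was 2363 to 2407 CPM in WaplΔ/+ and 2227 to 2305 CPM in double-heterozygote brains.

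**Figure D4:**
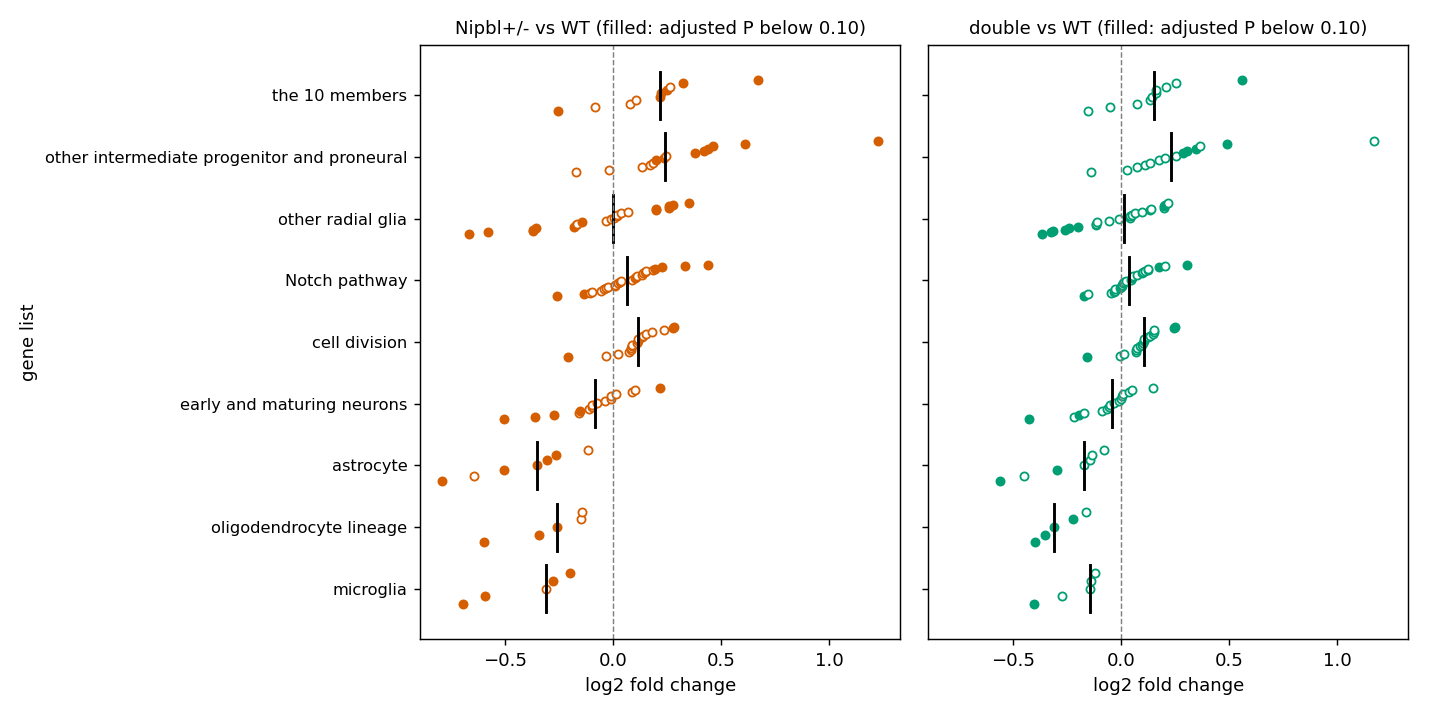
Log2 fold change against WT (x axis) of each gene in 9 lists (y axis), in Nipbl+/- brains on the left and double heterozygotes on the right; filled points passed the test and black bars are list medians. The 10 progenitor genes and the other intermediate progenitor genes have medians of 0.22 and 0.24 in Nipbl+/- brains, and every astrocyte, oligodendrocyte and microglial gene lies left of 0 in both panels.

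Of 26 genes of the Notch pathway, 5 rose and 2 fell in Nipbl+/- brains. The receptor Notch1 rose by 0.33 (edgeR adjusted P = 0.000771), the coactivator Maml1 by 0.23 and the Fringe enzyme Mfng by 0.44, and the related coactivator Maml2 fell by 0.26. In double heterozygotes 2 rose, Mfng (0.30) and the pathway's DNA-binding factor Rbpj (0.18), and Dtx4 fell by 0.17. None passed in WaplΔ/+ brains. Of the 18 cell division genes, Cdk1 (0.28) and Hmgb2 (0.29) rose and Ccnd1 fell by 0.21 in Nipbl+/- brains, where 16 of the 18 fold changes were positive. In double heterozygotes the same 3 genes passed in the same directions, and in WaplΔ/+ brains Cdk1 rose (0.28).

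Markers of other brain cells moved with the Nipbl genotype as well. All 7 astrocyte genes had negative fold changes in Nipbl+/- brains and 5 fell, among them Aqp4 (-0.79), S100b (-0.50), Gja1 (-0.35) and Aldoc (-0.30). Their summed level was 489 to 537 CPM in WT and 389 to 483 CPM in Nipbl+/- brains. Of 5 oligodendrocyte lineage genes 3 fell, Pdgfra (-0.60), Sox10 (-0.34) and Olig1 (-0.26), and the sum went from 198 to 219.6 CPM in WT to 153 to 189.7 CPM. Of 5 microglial genes 4 fell, and the sum went from 72.7 to 85.8 CPM in WT to 60.3 to 67.2 CPM. Of 16 neuronal genes, 4 fell, among them Grin2b (-0.36) and Syt1 (-0.27), neither of which had the largest fall in the list, and Fezf2 rose (0.22). Of 6 genes of ependyma and choroid plexus, 1 rose, and 5 of the 6 fold changes were negative. No gene of the endothelial, meningeal, blood, cerebellar or pituitary lists passed. No list had a gene at 0 in every library.

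Regional markers moved too. Of 6 midbrain and hindbrain genes, En1 (0.33), Pax7 (0.31) and En2 (0.29) rose in Nipbl+/- brains, and their list summed to 52.1 to 60.9 CPM in WT, 61.3 to 73.7 CPM in Nipbl+/-, 57.9 to 75.7 CPM in WaplΔ/+ and 57.8 to 80.6 CPM in double-heterozygote brains. In double heterozygotes 3 of these 6 genes rose, and in WaplΔ/+ brains 1 did. Of 4 forebrain genes, 3 rose, among them Emx1 (0.26) and Lhx2 (0.20), and 1 fell, and in double heterozygotes 0 rose and 1 fell. The forebrain list summed to 355 to 394 CPM in WT and 352 to 394 CPM in Nipbl+/- brains. The part that the makeup of the tissue plays in the differences of the 10 genes was not tested.

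In double heterozygotes astrocyte genes fell in 2 of 7 cases (Aqp4 -0.56, Aldh1l1 -0.30) and oligodendrocyte lineage genes in 4 of 5 (Pdgfra -0.40, Sox10 -0.35, Olig1 -0.31, Olig2 -0.22). In WaplΔ/+ brains no astrocyte, oligodendrocyte or microglial gene passed, while the meningeal collagen genes Col1a1 (0.62) and Col1a2 (0.38) rose.

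How the second deletion placed the double heterozygotes was tested directly. Against Nipbl+/- brains, none of the 10 genes was called by edgeR, where 0.00655% of all genes tested were, and DESeq2 also called none of the 10. No unadjusted P of the 10 was below 0.05, while 1259 of all 30552 genes tested had one. Neurog2 had a log2 fold change of -0.12 with a 95% interval from -0.53 to 0.28, Eomes -0.08 (-0.35 to 0.19), Emx2 -0.10 (-0.25 to 0.05) and Fabp7 0.09 (-0.07 to 0.25), each interval including 0. Each double-heterozygote fold change against WT had the sign of the Nipbl+/- one, and 9 of the 10 were smaller in size, the exception being Pax6. Both comparisons use the same 5 WT brains, so these values are set side by side and not tested as a pattern.

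Against WaplΔ/+ brains none of the 10 was called by edgeR, where 1.02% of all genes were. Of the 10, 3 had an unadjusted P below 0.05: Hes5 (-0.17), Fabp7 (-0.14) and Pax6 (0.13). Of all 30552 genes tested, 3037 had one. DESeq2 called Hes5 of the 10 and 626 of all genes.

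The interaction of the 2 genotypes asks whether the double heterozygotes depart from the sum of both single changes. None of the 10 was called, nor was any of the genes tested (0%), while 3 of the 10 and 4221 of all genes had an unadjusted P below 0.05. DESeq2 called 793 genes and none of the 10. The estimate was negative for 9 of the 10 genes. It was -0.69 for Neurog2 (95% interval -1.30 to -0.08, edgeR adjusted P = 0.297), -0.31 for Nes (-0.60 to -0.03, adjusted P = 0.31) and -0.23 for Emx2 (-0.45 to -0.01, adjusted P = 0.349). The median over all genes tested was -0.02.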

How the data were processed

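Poly(A) RNA from whole brains was sequenced as 101-base paired-end reads. According to the submitters' processing notes, the authors trimmed reads with cutadapt 2.4, aligned them with STAR 2.5.3a to mm10 (GRCm38.p6) and counted them on genes with featureCounts (Subread 1.6.4). They deposited raw counts per gene, without normalization. The annotation, the strand setting and the treatment of reads that fit several genes are not given in the sources used here. A further Nipbl+/- library was not analysed here.

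Groups followed the labels. Genes whose normalized counts over the 21 libraries came to 10 or more in sum were tested in R 4.3.3 with edgeR 4.0.16 (TMM over the libraries of each comparison, quasi-likelihood test, Benjamini-Hochberg threshold 0.10), each comparison on its own libraries and the interaction on all. The printed normalized counts and CPM used TMM over the 21 libraries, which is why ratios of printed means differ slightly from fitted fold changes. With that scaling in the test, 2107 genes were higher and 1755 lower in Nipbl+/- brains, in place of 1297 and 2125, and 411 and 412 in WaplΔ/+ brains, in place of 235 and 442. The scripts were tested on simulated data.

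No pair of libraries of 1 group agreed within sampling noise (chi-square per gene at least 2.41). Alternatives were DESeq2 1.42.0, its size factors, filters, a threshold of 0.05, a replicate block, 1 fit with every group in it, mt-Nd3 sets, allele order, leaving out each library and, added after seeing the data, TMM over the 21 libraries. For the 10 genes an exact permutation of log2 CPM, not adjusted over genes, was a further alternative. The 10 genes, the lists and the sets were chosen with earlier results of these data known. All 10 genes were named. From the other lists, at most 4 called genes per comparison with WT were named, those of largest change with a mean of 1 CPM or more, leaving out the genes not reported here. Dll1, Sox1, Sox3 and Sox21 were picked after their values were seen. Coordinates came from a RefSeq table for GRCm38.p6 matched by symbol.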

Additional observations from a re-analysis of the deposited data

Results flagged for a closer look

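Hes1 in WT replicate 2 stood apart from its group. Its normalized count was 221, while the nearest of the other 4 WT brains had 181, and the gap was 0.768 of the group's range (Dixon's 95% critical value for 5 samples is 0.71). This was 1 of 36 groups of values tested, and chance flags about 1 in 20 groups. Without this brain Hes1 was called in Nipbl+/- against WT brains.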

How the results depend on the processing

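Of 670 values of the 10 genes against WT under other settings, 566 kept their direction and their side of the threshold, 58 gained a call, 23 lost it and 23 changed sign. With Nipbl+/- brains, Fabp7 and Emx2 kept their call in all 18 alternatives, and Neurog2 lost its call in 1, Sox2 in 4, Eomes in 5 and Nes in 9. These alternatives include an exact permutation of log2 CPM, whose P is not adjusted over genes. For Eomes and Nes that permutation, at P = 0.0714 each, is counted among the losses. Where a cause is not given below, it was not tested.

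Leaving out 1 library at a time gave 3 to 9 of the 10 genes and 1828 to 4788 of all genes in Nipbl+/- against WT brains, 0 to 4 and 9 to 1534 in WaplΔ/+ brains, and 0 to 7 and 454 to 2504 in double heterozygotes. Against Nipbl+/- brains double heterozygotes gave 1 to 2 genes in all, and against WaplΔ/+ brains 0 to 2 of the 10 and 163 to 449 in all. The interaction gave 0 to 945 genes (945 without double-heterozygote replicate 6, 253 without WaplΔ/+ replicate 2). Signs changed for Vim in Nipbl+/- brains (-0.0179 to 0.18) and, in WaplΔ/+ brains, for Pax6 (-0.0274 to 0.0374) and Fabp7 (-0.0300 to 0.0145).

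With 1 fit of all 4 groups, 3, 0 and 0 of the 10 genes were called in Nipbl+/-, WaplΔ/+ and double-heterozygote brains against WT (1658, 7 and 602 of all genes), and 1 of the 10 and 576 of all in double heterozygotes against WaplΔ/+ brains. DESeq2 called 2 of the 10 and 1446 in all in WaplΔ/+ brains, and 4 of the 10 and 1480 in all in double heterozygotes. Comparing double heterozygotes with Nipbl+/- brains it called 5 genes in all, and with WaplΔ/+ brains 1 of the 10 and 626 in all. For the interaction it called 793. With no filter 3 of the 10 and 959 of 40969 genes were called in WaplΔ/+ and 3 of the 10 and 1175 in double-heterozygote brains, and with edgeR's own filter 1 in double heterozygotes against WaplΔ/+. At a threshold of 0.05, which is stricter by construction, 181, 547, 1 and 171 genes in all were called in WaplΔ/+ against WT, double heterozygotes against WT, against Nipbl+/- and against WaplΔ/+. TMM over the 21 libraries called 1 of the 10 in WaplΔ/+ brains, and 1 gene in all in double heterozygotes against Nipbl+/-.

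The numbers of the replicates did not pair the libraries: deviations of same-numbered libraries correlated between -0.21 and 0.300, and in no comparison above 0.1 in every pair. The replicate block called 1893 of all genes in Nipbl+/- brains, 4 of the 10 and 1991 of all in WaplΔ/+ brains, 535 in double heterozygotes, and 59 in double heterozygotes against Nipbl+/-.

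With a term for the mt-Nd3 set, 1 of the 10 and 305 of all genes were called in WaplΔ/+ brains, 1 gene in double heterozygotes against Nipbl+/- and 162 against WaplΔ/+. The low mt-Nd3 libraries alone, fewer by construction, gave 3 of the 10 and 1881 of all in Nipbl+/-, 47 of all in WaplΔ/+ and 3 of the 10 in double-heterozygote brains, and 1 and 24 genes in double heterozygotes against Nipbl+/- and WaplΔ/+. The high ones gave 278 genes in WaplΔ/+ brains, 0 of the 10 and 1 in all in double heterozygotes, and 29 against WaplΔ/+. With the Wapl deletion written first, 4 of the 10 were called in WaplΔ/+ and 6 of the 10 and 1814 of all in double-heterozygote brains, and 1 and 24 genes in double heterozygotes against Nipbl+/- and WaplΔ/+. With it written second, the values were 1 of the 10 and 1300 of all in WaplΔ/+ brains, and 9 and 29 genes.

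Further changes of sign were all in values that were not called. In WaplΔ/+ brains Pax6 went to -0.00033 with edgeR's filter, -0.0017 with the replicate block, -0.0312 with the mt-Nd3 term, -0.0453 and -0.0218 in the low and high mt-Nd3 libraries and -0.0845 with the deletion written first. Fabp7 went to 0.0029 with 1 fit of all groups, 0.0029 with TMM over the 21 libraries, 0.0018 in the high mt-Nd3 libraries and 0.0011 as a difference of log2 CPM. Hes1 went to -0.10 in the low mt-Nd3 libraries and -0.0507 with the deletion written first. Hes5 in double heterozygotes went to 0.0497 in the high mt-Nd3 libraries and 0.0159 with the deletion written second. The correlation of Hes1 and Hes5 was -0.41 in the high mt-Nd3 libraries.

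The Nipbl+/- group has 3 brains, and 3 of the 10 genes were called without replicate 1 and 9 without replicate 2. An exact two-sided permutation of 3 against 5 brains cannot give a P below 0.0179, which Sox2, Emx2, Neurog2 and Fabp7 reached.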
